A study of Mus musculus with 6 samples.

Results

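The calcineurin and NFAT genes were taken by name from the 6 libraries and comprised 9 of the 46072 genes in the tables. They were the catalytic subunits of calcineurin Ppp3ca and Ppp3cb, its regulatory subunit Ppp3r1, the transcription factors Nfatc1, Nfatc2, Nfatc3 and Nfatc4, and the calcineurin inhibitors Rcan1 and Rcan2. Left ventricles of male mice aged 10 weeks were taken from a Sham group (saline in the methods, untreated in the labels) and after infusion of angiotensin II (AngII) for 4 or 24 h at a labelled rate of 1 mg/kg/min from an osmotic minipump, with 2 mice in each group. Each group was then profiled by RIP-seq, the sequencing of RNA that is immunoprecipitated with a protein, using normal IgG and an antibody against EZH2, the methyltransferase of polycomb repressive complex 2, and every library was made from a mixture of 2 RIP products. The strain was labelled C57BL/6, except for the anti-EZH2 libraries of AngII 4 h (labelled C57BL/7) and AngII 24 h (labelled C57BL/8), where the last digit counts up from the Sham anti-EZH2 library on and may be an error of entry. There was thus 1 library for a given group and antibody, and differences between groups, and between antibodies within a group, could be described but not tested. Values were FPKM, in which fragments are divided by transcript length and by library depth, so that levels can be set side by side between genes, and they describe RNA recovered by each antibody and not the tissue's total RNA.

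Calcineurin is a phosphatase that is switched on by calcium and calmodulin. It removes phosphates from cytoplasmic NFAT factors, which then enter the nucleus and act on target genes together with partners such as GATA4 and MEF2, while kinases such as GSK3 and DYRK1A send them back. In the heart this pathway is known for driving hypertrophy, AngII is among the stimuli that engage it, and RCAN1, which binds and restrains calcineurin, is itself a target of NFAT and is widely used as its readout.

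The Rcan1 gene is transcribed from separate starts, of which the downstream start inside the gene is known for its response to calcineurin and NFAT. Both windows are shown because Rcan1 had the widest range of FPKM as deposited among the 8 genes detected in every library, its highest library standing at 4.34 times its lowest, and because the gene-level FPKM does not separate transcripts from these starts. Once the libraries were scaled to the same median, the range of Rcan1 was 3.21-fold, narrower than those of Nfatc1 (4.58-fold) and Nfatc2 (4.29-fold). The sequences are those of RefSeq (GRCm38.p6, minus strand) from 250 bases before to 50 bases after the start, and capitals mark the letters GGAAA, the core of the known NFAT motif, or TTTCC, the same letters on the other strand.
Rcan1 upstream start, chr16:92466120-92466419: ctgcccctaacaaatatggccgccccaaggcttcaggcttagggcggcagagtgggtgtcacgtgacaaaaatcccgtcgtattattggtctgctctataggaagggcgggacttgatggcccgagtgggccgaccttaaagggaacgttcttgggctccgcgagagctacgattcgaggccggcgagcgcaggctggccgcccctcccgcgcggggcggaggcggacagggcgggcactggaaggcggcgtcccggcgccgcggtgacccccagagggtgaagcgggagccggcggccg
Rcan1 downstream start, chr16:92400029-92400328: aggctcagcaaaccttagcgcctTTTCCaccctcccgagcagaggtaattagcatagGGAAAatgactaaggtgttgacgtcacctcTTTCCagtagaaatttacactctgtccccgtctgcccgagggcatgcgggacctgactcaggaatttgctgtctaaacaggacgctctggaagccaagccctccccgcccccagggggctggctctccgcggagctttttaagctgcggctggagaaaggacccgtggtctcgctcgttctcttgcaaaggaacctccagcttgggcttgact
The upstream window held 0 matches. The downstream window held 3, of which 1 was GGAAA and 2 were TTTCC. A motif of 5 letters is frequent, as 61.3% of 32851 RefSeq promoter windows held at least 1 match and 9.42% held 3 or more. Windows of 7 of the 9 genes were searched. Of the other genes, that of Ppp3cb held 4 matches, that of Nfatc4 held 3 and that of Ppp3r1 held 0. The upstream and downstream starts of Nfatc2 held 3 and 1, those of Nfatc3 held 1 and 0, and the starts of Rcan2 held 2, 0 and 0. A match describes letters and not a binding site, and no binding of an NFAT factor was measured here.

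The libraries differed in ways that bear on every level below. The depth implied by the tables was 4326175 and 5697405 fragments in the IgG and anti-EZH2 libraries of Sham, 5251553 and 7977346 fragments in those of AngII 4 h, and 3813378 and 4779559 fragments in those of AngII 24 h. Mitochondrially encoded genes held 31.7% of the FPKM in the AngII 24 h anti-EZH2 library and 6.84% in the AngII 4 h anti-EZH2 library, with 12.3% to 14.1% in the other libraries. The median FPKM over 4812 genes present in all libraries was lower with anti-EZH2 than with IgG, by a factor of 0.798 in Sham, 0.934 after 4 h and 0.681 after 24 h of AngII, and the median log2 ratio of all genes tested was likewise below 0, at -0.27, -0.10 and -0.60. The atrial light chain Myl7 stood at 14.3 and 12.2 FPKM in the IgG and anti-EZH2 libraries of Sham, at 0.491 and 0.323 at AngII 4 h and at 0 in both libraries of AngII 24 h, while the atrial gene Sln was listed at 0 in all libraries. All 5 cardiomyocyte genes (Myh6, Tnnt2, Actc1, Myl2 and Ryr2) were present in every library, and of these Myl2 was the most abundant with a mean of 2948 FPKM. In such bulk tissue fewer cells of a type and less RNA per cell cannot be told apart.

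The genes lie on 8 chromosomes of GRCm38, and all are protein-coding. Ppp3ca (ENSMUSG00000028161) is at chr3:136670124-136937727 on the plus strand, Ppp3cb (ENSMUSG00000021816) at chr14:20499364-20546573 on the minus strand and Ppp3r1 (ENSMUSG00000033953) at chr11:17159263-17200375 on the plus strand. Nfatc1 (ENSMUSG00000033016) is on the minus strand of chromosome 18, Nfatc2 (ENSMUSG00000027544) at chr2:168476410-168601657 on the minus strand, Nfatc3 (ENSMUSG00000031902) at chr8:106058840-106130537 on the plus strand and Nfatc4 (ENSMUSG00000023411) at chr14:55823144-55833943 on the plus strand. Rcan1 (ENSMUSG00000022951) is at chr16:92391953-92470867 on the minus strand and Rcan2 (ENSMUSG00000039601) at chr17:43801351-44039516 on the plus strand. FPKM counts the exons of all annotated transcripts of a gene. Nfatc1, Ppp3cb and Rcan1 each overlap a gene annotated as antisense, and how the strand was set in counting is not given in the sources used here.

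The 9 genes covered a wide range of levels. Rcan2 was the most abundant with a mean of 23.2 FPKM over the 6 libraries, and its lowest library (13.0 FPKM) lay above the highest library of each of the other genes. Rcan1 (mean 4.62 FPKM), Ppp3ca (4.24), Ppp3r1 (3.41) and Ppp3cb (2.85) followed, and the ranges of these neighbours over the libraries overlapped. Nfatc2 (1.21), Nfatc3 (0.836) and Nfatc1 (0.771) were lower and likewise overlapped. Nfatc4 was detected in 2 of the 6 libraries, at 0.172 FPKM in the Sham anti-EZH2 library and 0.186 FPKM in the AngII 4 h IgG library, which came to 3 reads each, the limit that a count of 0 allows. It was left out of the comparisons, and 8 of the 9 genes had the mean FPKM of at least 0.5 that was asked of a tested gene. The error of a level was read from the interval that the tables give for each FPKM, which covers counting and the assignment of reads to transcripts but not the spread between mice.

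**Figure D1:**
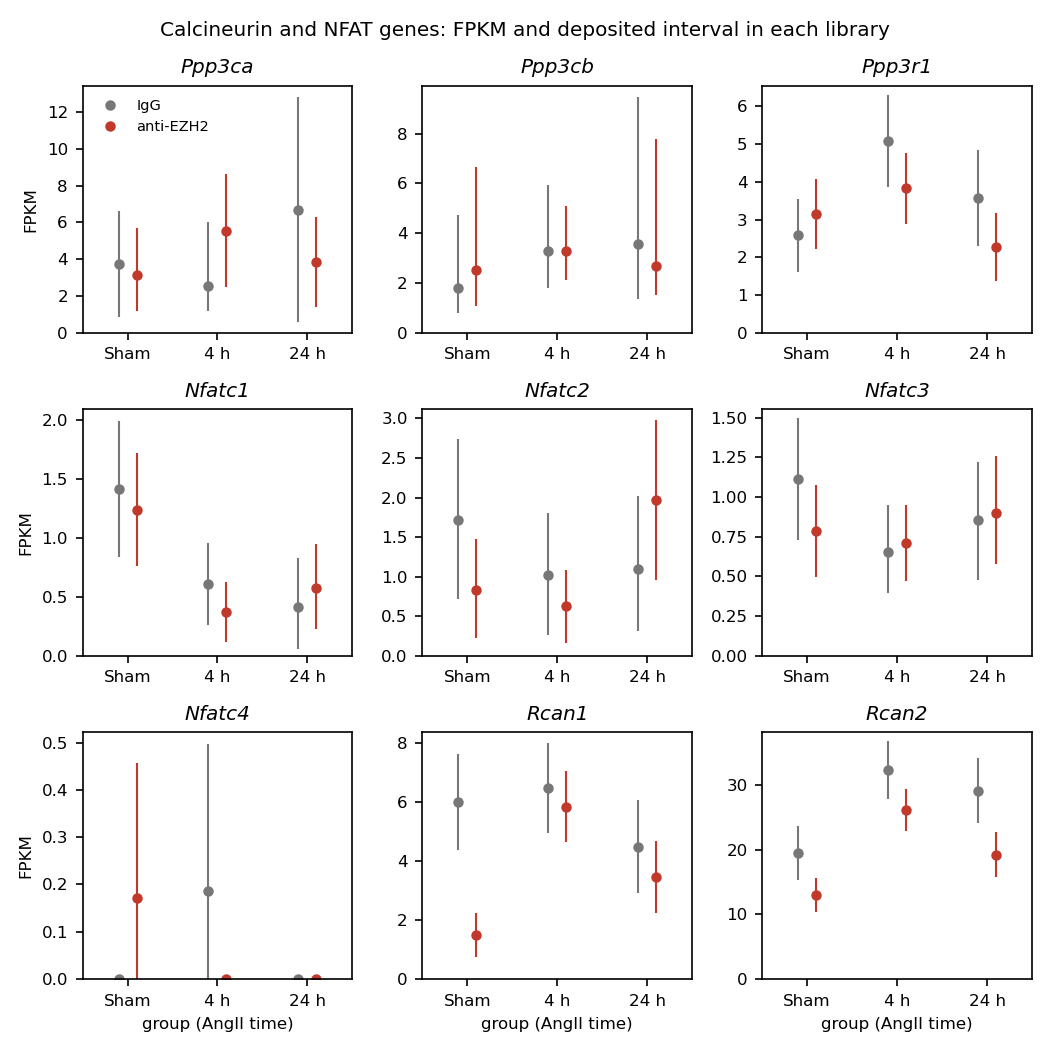
FPKM (y axis, own linear scale in each panel, from 0) of the 9 genes by group (x axis), with IgG libraries in grey and anti-EZH2 libraries in red. Each point is 1 library and each vertical line the interval deposited with it, which shows counting and assignment error only. Rcan1 is low in 1 library, Sham anti-EZH2, and Nfatc1 is higher in both Sham libraries than in the other 4.

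Among the catalytic subunits, Ppp3ca held a median of 45.2% of the summed FPKM of the 3 catalytic genes (range 34.0% to 52.8% over the libraries), Ppp3cb 29.4% (23.1% to 44.1%) and the third gene, Ppp3cc, 24.2% (19.0% to 28.9%). The order of Ppp3ca and Ppp3cb was mixed in the separate series table of FPKM. Ppp3ca was above Ppp3cb there in Sham IgG and in both AngII 24 h libraries, and below it in the others. Its mean over the libraries was 2.30 FPKM there, against 2.16 FPKM for Ppp3cb. In the series table Ppp3ca held a median of 46.3% of the sum of Ppp3ca and Ppp3cb, against 60.8% here. Ppp3ca stood at 3.74 FPKM in the Sham IgG library (interval 0.862 to 6.61), 3.15 in Sham anti-EZH2 (1.17 to 5.71), 2.53 in AngII 4 h IgG (1.20 to 6.01), 5.53 in AngII 4 h anti-EZH2 (2.49 to 8.60), 6.67 in AngII 24 h IgG (0.589 to 12.8) and 3.82 in AngII 24 h anti-EZH2 (1.37 to 6.26). All 6 intervals overlapped, and their width corresponded to between 2.11 and 13.0 reads. The tables list 7 start sites for this gene. Ppp3cb was between 1.80 FPKM in the Sham IgG library and 3.57 FPKM in the AngII 24 h IgG library, and its intervals also overlapped in all libraries. Ppp3r1, which encodes the calcium-binding subunit, was lowest in the AngII 24 h anti-EZH2 library (2.27 FPKM, interval 1.36 to 3.18) and highest in the AngII 4 h IgG library (5.08, 3.86 to 6.30). The deposited interval of that highest library lay above those of the Sham IgG library (2.59, 1.62 to 3.55) and of the AngII 24 h anti-EZH2 library. Scaled for the library medians, it overlapped them, as it began at 3.28. Those of Sham IgG and AngII 24 h anti-EZH2 then ended at 3.52 and 3.95. Ppp3r1 overlaps Wdr92 on the same strand, so that its reads could have been divided between these genes, and its level is uncertain to that extent.

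The NFAT factors were on average lower than the calcineurin subunits. Nfatc2 held a median of 40.9% of their summed FPKM (range 27.5% to 57.2%), Nfatc3 26.3% (25.9% to 41.7%) and Nfatc1 23.1% (16.7% to 40.9%). Nfatc1, known from endocardial cells and valve formation, stood at 1.42 FPKM in the Sham IgG library (interval 0.839 to 2.00), 1.24 in Sham anti-EZH2 (0.765 to 1.72), 0.608 in AngII 4 h IgG (0.262 to 0.955), 0.370 in AngII 4 h anti-EZH2 (0.114 to 0.625), 0.416 in AngII 24 h IgG (0.0595 to 0.827) and 0.572 in AngII 24 h anti-EZH2 (0.232 to 0.952). Both Sham libraries were therefore higher than the 4 AngII libraries, and the intervals of Sham and AngII lay apart in the anti-EZH2 libraries at 4 h and in the IgG libraries at 24 h. These values rest on few reads, as the width of the intervals corresponded to 24.0 and 27.1 reads in Sham and to between 4.12 and 12.3 in the AngII libraries. Nfatc2, known from lymphocytes as well as muscle, was lowest in the AngII 4 h anti-EZH2 library (0.625 FPKM, interval 0.166 to 1.09). It was highest in the AngII 24 h anti-EZH2 library (1.96, 0.958 to 2.98). These deposited intervals overlapped, and their width corresponded to 7.33 and 15.1 reads. Scaled for the library medians, they lay apart, ending at 0.989 in AngII 4 h anti-EZH2 and beginning at 1.19 in AngII 24 h anti-EZH2. In that last library the T cell gene Cd4 was at 2.67 FPKM, against 0.487 in Sham IgG and 0 in the other 4, while Cd3e and Cd8a were at 0 in all libraries. The part of such cells in the level of Nfatc2 was not tested. Nfatc3 lay between 0.655 and 1.11 FPKM, the narrowest range of the 8 genes as deposited (1.70-fold) but not after scaling (2.01-fold, against 1.69-fold for Ppp3r1), and all its intervals overlapped.

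Of the feedback genes, Rcan2 held a median of 83.2% of the summed FPKM of Rcan1, Rcan2 and Rcan3 (range 75.5% to 87.7%). Rcan2 stood at 19.4 FPKM in the Sham IgG library (interval 15.3 to 23.6), 13.0 in Sham anti-EZH2 (10.3 to 15.6), 32.3 in AngII 4 h IgG (27.8 to 36.8), 26.1 in AngII 4 h anti-EZH2 (22.8 to 29.4), 29.1 in AngII 24 h IgG (24.1 to 34.1) and 19.2 in AngII 24 h anti-EZH2 (15.7 to 22.7). It was higher with AngII at both times within either antibody, with the deposited intervals, not scaled for the library medians, apart. Rcan1 stood at 5.99 FPKM in the Sham IgG library (4.36 to 7.62), 1.49 in Sham anti-EZH2 (0.744 to 2.24), 6.46 in AngII 4 h IgG (4.93 to 7.98), 5.84 in AngII 4 h anti-EZH2 (4.62 to 7.05), 4.48 in AngII 24 h IgG (2.90 to 6.05) and 3.47 in AngII 24 h anti-EZH2 (2.25 to 4.68). The Sham anti-EZH2 library was the low one, and the other 5 lay between 3.47 and 6.46 FPKM. Its interval ended just below that of AngII 24 h anti-EZH2, which began at 2.25, and well below the others. The Rcan2/Rcan1 FPKM ratio was 8.73 in that library and between 3.24 and 6.50 in the others.

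The comparison of anti-EZH2 with IgG asks which RNAs were recovered with EZH2 beyond the nonspecific background. Within a group, Rcan1 and Nfatc2 were called lower with anti-EZH2 in Sham, Ppp3ca was called higher at AngII 4 h, and none of the 9 genes was called in either direction at AngII 24 h. The Nfatc2 call was lost over the ratio of the library medians (0.608), with an FPKM above 2, with intervals apart or with 0.1 added. It was also lost in the series table, where the ratio was 0.468 but both levels lay below 1 FPKM. The Ppp3ca call was lost in the series table (1.52) and with intervals apart. At AngII 24 h Nfatc2 was past the criterion in the series table (3.47) and over the ratio of the library medians (2.63), but not as deposited (1.79). The criterion was adapted from that of the study and asked for more than 1 FPKM with anti-EZH2 at more than 2 times the IgG level, and it was also applied with the antibodies exchanged. A level above 0 in every library was not asked for, but the calcineurin, NFAT and pathway genes that were called all had one. These calls were about as frequent as among all genes, or less so. In Sham, 0 of 6 genes above the FPKM minimum were called higher, against 22.0% of all genes, and 2 of 8 were called lower, against 27.4%. At AngII 4 h, 1 of 5 was called higher, against 18.1%, and 0 of 6 lower, against 17.9%. At AngII 24 h, 0 of 6 were called higher, against 15.8%, and 0 of 6 lower, against 42.5%.

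The Rcan1 ratio was 0.248 in Sham, 0.904 after 4 h and 0.774 after 24 h of AngII. The Sham intervals did not overlap, which was the case in that direction for 3.76% of the 11336 genes tested, and 6.53% of the 8687 genes above 1 FPKM in a Sham library had a ratio as low or lower. The Nfatc2 ratio was 0.485 in Sham, 0.610 after 4 h and 1.79 after 24 h of AngII, with overlapping intervals in every group. The Ppp3ca ratio was 0.842 in Sham, 2.19 after 4 h and 0.573 after 24 h of AngII, again with overlapping intervals throughout. The Rcan2 ratio was 0.668, 0.809 and 0.660 in the same order, on the same side of 1 as the library medians. Its intervals lay apart at AngII 24 h, as did those of 8.94% of the genes tested, but its ratio there was 0.970 over the ratio of the library medians and 1.02 in the series table. The ratios of Ppp3cb were 1.40, 0.996 and 0.755, those of Ppp3r1 1.22, 0.753 and 0.636, those of Nfatc1 0.876, 0.608 and 1.37, and those of Nfatc3 0.705, 1.09 and 1.05. None of these had intervals apart in a group.

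**Figure D2:**
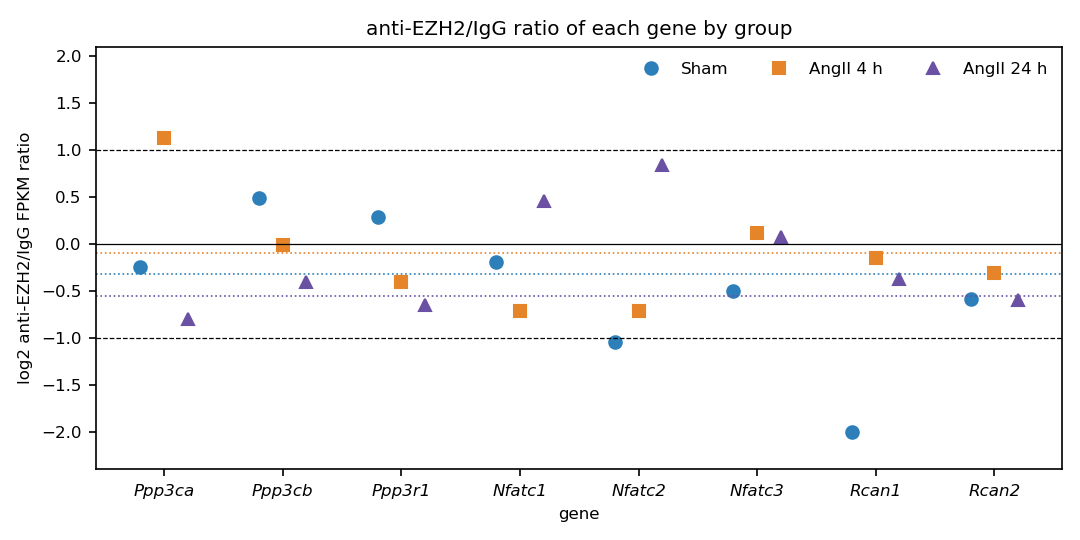
log2 of the anti-EZH2/IgG FPKM ratio (y axis) of 8 genes (x axis) in Sham (blue circles), AngII 4 h (orange squares) and AngII 24 h (purple triangles), 1 pair of libraries each. Dashed lines mark ratios of 2 and 1/2 and dotted lines the ratio of the library medians of each group in its colour. Rcan1 in Sham, at -2.01, is farthest from 0, and Ppp3ca at AngII 4 h, at 1.13, lies above the upper dashed line.

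Over the groups, none of the 8 tested genes passed the test for a difference between anti-EZH2 and IgG. Each library was scaled to the same median over 4812 genes, and log2(scaled FPKM + 0.1) was fitted with limma on the 3 pairs of libraries. The 3 pairs are the 3 groups and not replicates of a group. The error of the fit therefore includes differences between groups in the antibody ratio, and a difference in 1 group alone widens it. The log2 difference (anti-EZH2 minus IgG) was -0.50 ± 0.46 (SE, 3 pairs) for Rcan1, with an unadjusted p from limma of 0.331 and an adjusted p of 0.907. It was -0.17 ± 0.20 for Rcan2, 0.34 ± 0.39 for Ppp3ca, 0.34 ± 0.31 for Ppp3cb, 0.06 ± 0.32 for Ppp3r1, 0.16 ± 0.52 for Nfatc1, 0.03 ± 0.55 for Nfatc2 and 0.20 ± 0.43 for Nfatc3, with limma's adjusted p between 0.906 and 0.997 for the 8 genes. Without the Sham pair the difference of Rcan1 was 0.07. Among all 11336 genes the fit called 1 (0.00882%) as higher with anti-EZH2 and 0 as lower, and 6.20% had an unadjusted p below 0.05, against 0 of the 8 genes.

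The comparison of AngII with Sham asks how the levels moved after acute AngII. After 4 h, Nfatc1 and Nfatc2 were lower than in Sham in both the IgG and the anti-EZH2 libraries, and none of the genes was higher in both by 1.5-fold. After 24 h, Nfatc1 was lower in both and again none was higher in both. A gene was called when its scaled level differed by more than 1.5-fold the same way in both antibodies, on the log2(scaled FPKM + 0.1) scale. At 4 h 2 of 8 genes were called lower, against 9.99% of all genes tested, and 0 higher, against 6.72%. At 24 h 1 of 8 was called lower, against 10.8%, and 0 higher, against 7.23%. Between 24 h and 4 h 0 of 8 were called in either direction, against 6.77% higher and 7.14% lower. Nfatc1 met the minimum mean of 0.5 FPKM, taken over all 6 libraries, owing to Sham, the group where it is high. Its Sham libraries stood at 1.42 and 1.24 FPKM and its AngII libraries between 0.370 and 0.608. The counts that include it are therefore a description only. Without a minimum the counts lower than Sham were also 2 and 1, and with a minimum of 2 FPKM both were 0. Within 1 antibody more genes passed 1.5-fold, as they did among all genes. At 4 h, 2 of 8 were higher in the IgG libraries (24.5% of all genes) and 4 lower (25.3%), and 1 was higher in the anti-EZH2 libraries (21.8%) and 2 lower (28.9%). At 24 h, 2 were higher (26.5%) and 3 lower (25.8%) in the IgG libraries, and 2 higher (23.1%) and 1 lower (33.2%) in the anti-EZH2 libraries. From 4 h to 24 h, 1 was higher (24.5%) and 0 lower (22.3%) in the IgG libraries, and 3 were higher (23.6%) and 0 lower (28.7%) in the anti-EZH2 libraries. The comparisons at 4 h and at 24 h share the Sham libraries. Before scaling, the library median differed from Sham by a log2 of 0.22 in the IgG and 0.45 in the anti-EZH2 library at 4 h, and by 0.23 and -0.00 at 24 h, and changes below are relative to these shifts.

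The scaled level of Nfatc1 after 4 h was 0.368 times that of Sham in the IgG libraries and 0.218 times in the anti-EZH2 libraries. With 0.1 added to the scaled FPKM, as for all log2 changes here, the log2 changes were -1.29 and -1.91. After 24 h it was 0.251 and 0.461 times that of Sham. Of all genes tested, 11.8% in the IgG and 6.60% in the anti-EZH2 libraries had a change as low or lower at 4 h, and 7.08% and 23.2% at 24 h. Of the endothelial genes Pecam1, Cdh5, Kdr and Tie1, none of them at 0, Cdh5 and Kdr were called lower at 4 h and Cdh5 at 24 h, while Pecam1 and Tie1 were not called. The log2 change of Tie1 was -0.70 and -0.95 with IgG at these times, against 0.21 and 0.07 with anti-EZH2. The summed scaled FPKM of the 4 genes was 24.6 and 23.8 in the IgG and anti-EZH2 libraries of Sham, 15.8 and 18.5 at 4 h and 14.7 and 12.7 at 24 h, and Pecam1 was the most abundant with a mean of 8.01 FPKM. Their part in the level of Nfatc1, and that of the tissue behind Myl7, was not tested. Nfatc2 was 0.510 and 0.549 times its Sham level at 4 h in the IgG and anti-EZH2 libraries, and 0.544 and 2.35 times at 24 h, so that the antibodies went in opposite directions at the later time. The call of Nfatc2 at 4 h was lost with FPKM as deposited (mean log2 change -0.53) and with a pseudocount of 1 (-0.45), and it was not called in the series table. The call of Nfatc1 at 24 h was lost with a pseudocount of 1 (-0.70). In the series table Nfatc1 had a mean of 0.384 FPKM, below the minimum of a tested gene, and its mean log2 change there was -1.46 at 4 h and -1.20 at 24 h. Nfatc3 was 0.505 and 0.665 times its Sham level at 4 h and 0.658 and 1.15 times at 24 h. At 24 h the scaled levels of Nfatc1, Nfatc2 and Nfatc3 were 0.682, 1.07 and 1.30 times those at 4 h in the IgG libraries. They were 2.11, 4.29 and 1.73 times those at 4 h in the anti-EZH2 libraries, in which all 3 were higher at the later time by more than 1.5-fold. In the series table, scaled likewise, Nfatc3 was instead lower at 24 h than at 4 h with both antibodies (log2 change -0.52 and -0.29). As deposited there it was higher, at 0.315 and 0.447 FPKM at 4 h and 0.340 and 0.584 FPKM at 24 h. After scaling it was called lower at 24 h against Sham (-1.55 and -0.87).

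**Figure D3:**
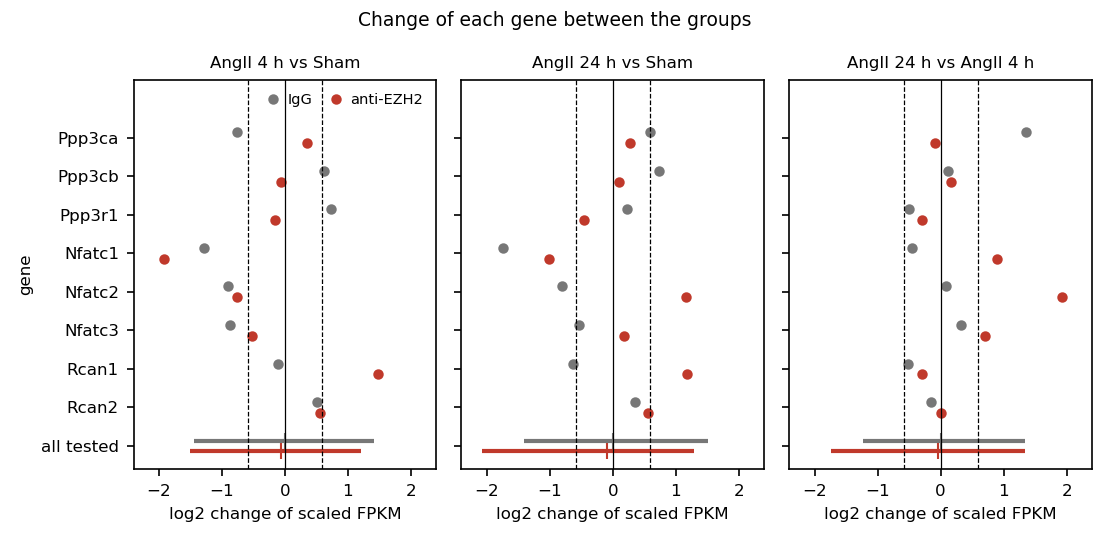
log2 change of scaled FPKM (x axis) of 8 genes (y axis) between groups, in the IgG (grey) and the anti-EZH2 libraries (red), 1 library per group and antibody. Dashed lines mark 1.5-fold, and the bottom bars run from the 10th to the 90th percentile of all genes tested, with a tick at the median. Nfatc1 lies left of the lower line in both antibodies at both times against Sham, and Rcan1 lies right of the upper line with anti-EZH2 only.

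Rcan1, the readout gene of the pathway, gave no common direction in the antibodies when either time was set against Sham. In the IgG libraries its scaled level was 0.926 times that of Sham at 4 h and 0.639 times at 24 h. In the anti-EZH2 libraries it was 2.88 and 2.33 times that of Sham, with intervals apart at both times, and both of these ratios have the low Sham anti-EZH2 library as their denominator. Between 4 h and 24 h it was 0.690 times in the IgG and 0.810 times in the anti-EZH2 libraries. Rcan2 was higher with AngII by a similar factor in either antibody. It was at 1.43 and 1.48 times Sham at 4 h and 1.28 and 1.48 times at 24 h. All of these lay below the fold asked of a call. Of all genes tested, 26.7% in the IgG and 22.5% in the anti-EZH2 libraries had a change as high or higher at 4 h. At 24 h these shares were 34.5% and 23.6%. As deposited, Rcan2 was at 1.66 and 2.01 times at 4 h and thus past the fold, as were 13.7% of the genes tested. Without scaling it still stayed below the fold at 24 h. Its deposited intervals also lay apart and above Sham in both antibodies at 4 h, as for 2.31% of the genes tested, and at 24 h, as for 0.600%. With the intervals multiplied by the scale factor of each library they still lay apart at 4 h in both antibodies, as for 0.732% of the genes tested, but at 24 h, where 0.468% met this, the IgG interval began at 20.4 and that of Sham ended at 23.4. Both criteria were added after seeing the data. The 5 cardiomyocyte genes did not all go the same way. Tnnt2 (1.30 and 1.29 times Sham after scaling at 4 h, 1.17 and 1.34 times at 24 h) and Ryr2 (1.12 and 1.19 times, then 1.19 and 1.26 times) were above Sham with deposited intervals apart throughout. Myh6 was also above Sham (1.18 and 1.28 times, then 1.32 and 1.12 times). Myl2 (1.11 and 1.10 times at 4 h) was at 0.924 and 0.998 times at 24 h. Actc1 (1.03 and 1.05 times at 4 h) was at 0.694 and 0.632 times at 24 h. The part of cardiomyocyte content in the level of Rcan2 was not tested. The calcineurin subunits gave 1.57 and 0.952 times (Ppp3cb), 1.69 and 0.891 times (Ppp3r1) and 0.580 and 1.29 times (Ppp3ca) their Sham level at 4 h in the IgG and anti-EZH2 libraries, without a common direction. At 24 h Ppp3ca was at 1.52 and 1.21 times and Ppp3cb at 1.70 and 1.07 times, both above Sham in either antibody but past the fold in the IgG libraries alone, and Ppp3r1 was at 1.18 and 0.721 times. After scaling, the direction of Ppp3cb turned in the series table, with log2 changes of -0.37 (IgG) and -1.18 (anti-EZH2) at 24 h against Sham. As deposited there, its IgG level was higher at 24 h (1.83 FPKM) than in Sham (1.47 FPKM). Its anti-EZH2 level was lower (2.09 against 2.80 FPKM). At 24 h against 4 h Ppp3cb was called lower there (-1.07 and -0.94) and Ppp3ca was called higher (1.02 and 0.78). Rcan2 stayed above Sham there, by a log2 of 0.35 and 0.43 at 4 h and of 0.09 and 0.29 at 24 h. Over the 8 genes the median log2 change at 4 h was -0.43 in the IgG and -0.12 in the anti-EZH2 libraries, against 0.00 and -0.06 over all genes tested, and at 24 h it was -0.16 and 0.23, against 0.00 and -0.09.

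The genes whose pattern over the 6 libraries was most like that of Rcan1 shared its low level in the Sham anti-EZH2 library. Likeness was measured as the root mean square difference of centred log2(scaled FPKM + 0.1). The nearest were Snrpn (0.0923), whose reads can be shared with the overlapping Snurf, then Vldlr (0.136), a lipoprotein receptor, Atf6b (0.150), a factor of the unfolded protein response, Mark4 (0.164), a kinase of microtubule-associated proteins, and P2rx5 (0.164), an ATP-gated channel. Vldlr stood at 16.9 FPKM in the Sham IgG library and 4.91 in Sham anti-EZH2, and at 17.5, 14.9, 12.0 and 8.21 FPKM in the IgG and anti-EZH2 libraries of AngII 4 h and of AngII 24 h. Nearest to Rcan2 were Rab2a (0.0614), Ghitm (0.0616) and Rxrg (0.0725), and nearest to Ppp3ca were Gatad1 (0.106), Tbkbp1 (0.134) and Zbtb44 (0.138). With 6 points and 11336 candidates such neighbours are a description only.

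Of 38 other genes of the pathway, 27 had a mean FPKM of at least 0.5. In Sham, 2 of 23 above the FPKM minimum were called higher with anti-EZH2 and 5 of 23 lower. At AngII 4 h these counts were 2 of 25 and 1 of 25, and at AngII 24 h 0 of 24 and 3 of 26, in each case a smaller share than among all genes. Nfat5, the NFAT relative that responds to osmotic stress and not to calcineurin, had an anti-EZH2/IgG ratio of 0.326 in Sham, 2.04 after 4 h and 0.242 after 24 h of AngII. Its intervals overlapped in every group. Of the NFAT kinases, Dyrk1a was called lower with anti-EZH2 in Sham (ratio 0.479) and at AngII 4 h (0.428, intervals apart). Dyrk1b was called higher in Sham (3.12), with overlapping intervals and an IgG level of 0.497 FPKM. Among genes of calcium entry, Orai1, the pore of store-operated entry, had ratios of 5.94 in Sham and 0.399 at AngII 24 h. Its sensor Stim1 had a ratio of 0.456 at AngII 24 h, and the intervals behind all of these overlapped. The Orai1 level in Sham IgG was 0.277 FPKM. The partner Mef2a was called lower in Sham (0.422, intervals apart) and Mef2c higher at AngII 4 h (2.13). The calcineurin-binding Cib1 (0.319) and the immunophilin Fkbp1a (0.359, intervals apart) were called lower in Sham, and Fkbp1a has pseudogene copies that could take part of its reads. Over the groups 0 of the 27 had an unadjusted p below 0.05 in limma, and the lowest, 0.0539 for Mef2c (log2 difference 0.79), came to 0.813 after adjustment.

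Between the groups, few of these genes were called. Lmcd1, a LIM protein known to promote calcineurin signalling in the heart, was higher at both times, at 1.84 and 2.18 times its Sham level at 4 h in the IgG and anti-EZH2 libraries and at 2.13 and 1.84 times at 24 h. Its FPKM was 1.51 and 1.49 in the libraries of Sham, 3.24 and 4.43 at 4 h and 3.77 and 2.74 at 24 h, with intervals apart in the anti-EZH2 libraries at 4 h and in the IgG libraries at 24 h. Gata4, an NFAT partner, was at 1.53 and 1.63 times at 24 h, with overlapping intervals. Lower than Sham at 24 h were Calm2, a calmodulin gene (0.433 and 0.636 times), and Nppa (0.217 and 0.495 times), a natriuretic peptide gene of the atria and of the stressed ventricle. The FPKM of Nppa was 20.2 and 10.8 in Sham, 10.6 and 10.2 at 4 h and 5.14 and 5.36 at 24 h, and it was lower alongside Myl7. Mef2d was higher at 24 h than at 4 h, at 1.99 and 1.87 times. At 4 h this made 1 of 27 higher and 0 lower, at 24 h 2 higher and 2 lower, and between the times 1 higher and 0 lower, below the shares of all genes at 4 h and close to them for genes higher at 24 h. The most abundant gene of each list was not called between the groups, namely Myoz2 (mean 148.7 FPKM), the calcineurin-binding protein calsarcin-1 of the Z-disc, Calm3 (20.2), Myh7 (38.3), Csnk1a1 (12.0), Ppp3cc (2.22) and Orai1 (0.893). Of the other genes, Il6, Myoz1 and Nron were listed at 0 in all libraries.

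**Figure D4:**
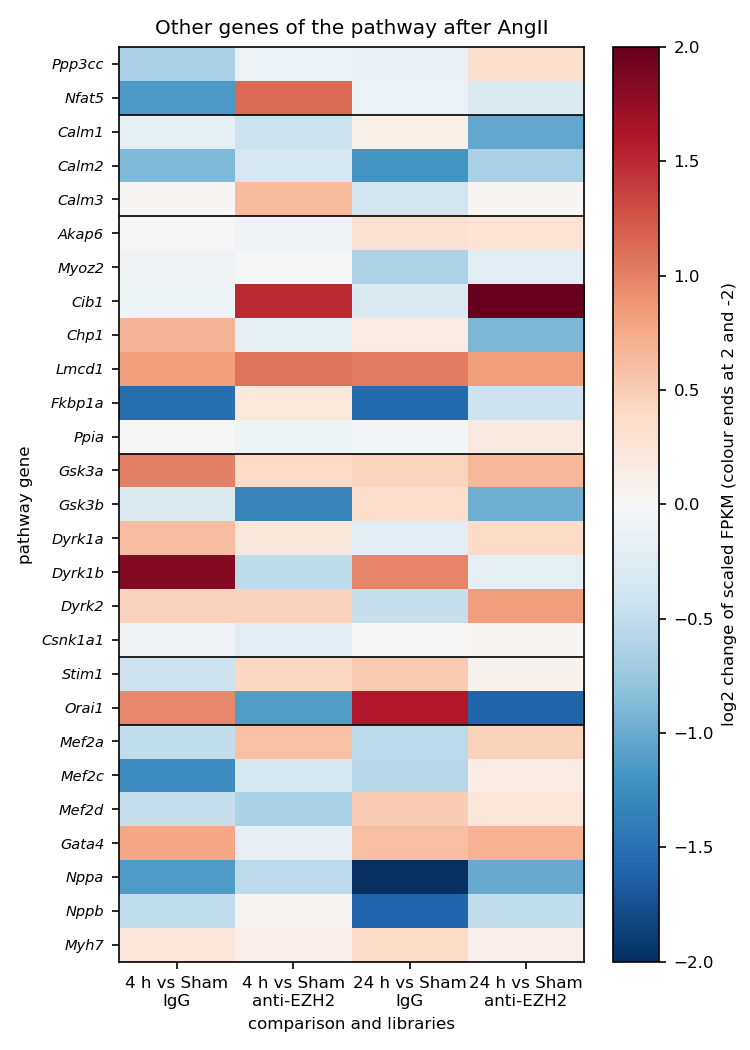
log2 change of scaled FPKM (colour, cut at 2 and -2) of the 27 other pathway genes with a mean FPKM of at least 0.5 (rows, black lines separate the lists) against Sham, in the IgG and the anti-EZH2 libraries at 4 h and 24 h (columns). Lmcd1 is higher and Nppa lower in all columns, while several rows change colour between the antibodies.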

How the data were processed

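Left ventricles of 3 groups gave 6 RIP-seq libraries. Reads of stranded libraries were mapped to mm10 by the authors with TopHat2. They deposited FPKM with an interval per gene for every library, and a separate series table of FPKM (44136 names, in which Ppp3r1 was not analysed). The program behind the FPKM, the strand setting and the level of the interval are not given in the sources used here. The tables of the libraries were used. FPKM below 0.001 was set to 0, values not marked OK were left out, and the 93 additional rows of genes with several loci were summed. Positions are those of GENCODE M21. Depth was inferred from single-transcript genes of at least 1500 nt whose interval has the width of 1 or 2 reads, with fragments of 200 nt. Reads behind a level are those an interval of its width would have from counting alone.

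Libraries were scaled to 1 median over genes with an FPKM of at least 1 in all of them, 0.1 was added and log2 taken. Time comparisons and ratios within a group had no test. limma 3.58.1 (R 4.3.3, moderated with a trend, group as block, Benjamini-Hochberg over 11336 genes) compared the antibodies. The block pairs the IgG and anti-EZH2 libraries of a group. That both came from the same lysate is not stated. The fit was tested on simulated data. It called 51% of the genes given a log2 difference of 2 either way and 81% of those given 4. Of unchanged genes it called 0.0539%. A gene without a call can thus still differ between the antibodies. Python 3.11.15, numpy 2.4.6, pandas 2.3.3 and matplotlib 3.10.9 were used. Named were the 9 genes, pathway genes called or most abundant in their list, and the nearest patterns of Rcan1 (5), Rcan2 (3) and Ppp3ca (3). The genes, lists and rules were chosen with earlier results of these data known. Marker lists were those of cardiomyocytes, atrium, endothelium, fibroblasts, macrophages, T cells, erythroid cells and adipocytes. A gene of the pathway lists is not reported here.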

Additional observations from a re-analysis of the deposited data

Results flagged for a closer look

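Among the 9 calcineurin and NFAT genes, the anti-EZH2/IgG FPKM ratio of 2 crossed 2 or 1/2 in 1 group and lay on the other side of 1 in another, and neither difference was tested, as each group had 1 library per antibody. Ppp3ca had a ratio of 2.19 at AngII 4 h against 0.842 in Sham and 0.573 at AngII 24 h. Its intervals overlapped within every group, and divided by the ratio of the library medians the Sham value was 1.06, with 2.34 after 4 h and 0.841 after 24 h of AngII. The series table gave 0.811 for Sham, 1.52 after 4 h and 1.23 after 24 h of AngII, so that the ratios of the AngII groups lay on the same side of 1 there. Nfatc2 had a ratio of 0.485 in Sham against 1.79 at AngII 24 h, with overlapping intervals in both groups, and in the series table these were 0.468 and 3.47.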

How the results depend on the processing

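No called value of the 8 tested calcineurin and NFAT genes changed its sign, and the other pathway genes were not run one by one under the alternatives. The Rcan2 ratio at AngII 24 h moved from a log2 of -0.60 to -0.04 over the median ratio and to 0.02 in the series table. Ppp3cb was not called in the separate tables. In the series table, after scaling, its mean log2 change turned from 0.41 to -0.78 at 24 h against Sham. At 24 h against 4 h it turned from 0.14 to a called change of -1.07 with IgG and -0.94 with anti-EZH2. The change of Nfatc3 at 24 h against 4 h turned from 0.52 to -0.41. As deposited in the series table, Nfatc3 was higher at 24 h than at 4 h in both antibodies. So was Ppp3cb with IgG at 24 h against Sham. At 24 h against Sham the 1 gene lower was Nfatc1 in the separate tables and Nfatc3 in the series table. Among the 41 counts that moved, those over the groups concerned genes outside the pathway: 1 gene (Gm17428) was higher with anti-EZH2, against 0 with a pseudocount of 1, 0 in the series table, 0 to 0 when the pair of each group was left out in turn, and 4 without the replicate block, that is without pairing the libraries of a group. None of the 8 tested genes was called with or without that pairing, or under any alternative in which it was fitted. Ppp3r1 and Nfatc1 were not fitted in the series table, nor Nfatc1, Nfatc2 and Nfatc3 with a mean FPKM of at least 2. In Sham 2 genes were lower with anti-EZH2, against 1 (Rcan1, with the Nfatc2 call lost) in the series table, after division by the median ratio, with an FPKM above 2, with intervals apart or with 0.1 added. In the series table the Nfatc2 ratio was 0.468, and its call was lost to the minimum of 1 FPKM. At AngII 4 h the 1 gene higher with anti-EZH2 became 0 in the series table and with intervals apart, and at AngII 24 h 0 became 1 (Nfatc2) in the series table and after division by the median ratio. At 4 h against Sham, 0 genes higher became 1 (Rcan2) as deposited, 2 in the IgG libraries only, 1 in the anti-EZH2 libraries only and 1 (Rcan2) with intervals apart, scaled or not, and 2 lower became 1 as deposited, with a pseudocount of 1 or with 2-fold, 0 in the series table, with a mean FPKM of at least 2 or with intervals apart, 1 (Nfatc1) with scaled intervals apart, and 4 in the IgG libraries only. At 24 h against Sham, 0 higher became 2 in either antibody alone and 1 (Rcan2) with intervals apart but not with scaled ones, and 1 lower became 3 in the IgG libraries only and 0 with a pseudocount of 1, a mean FPKM of at least 2 or intervals apart, scaled or not. At 24 h against 4 h, 0 higher became 1 in the series table, 1 in the IgG and 3 in the anti-EZH2 libraries only, and 0 lower became 1 in the series table. The median share of Ppp3ca in Ppp3ca and Ppp3cb was 60.8% in the separate tables and 46.3% in the series table. In the latter Ppp3cb thus held the larger median share, but Ppp3ca had the higher mean (2.30 against 2.16 FPKM). The other 84 counts and shares stayed within 1.5-fold or their spread. The cause of these differences was not tested. The counts as deposited include the shift of the library medians, and those with intervals apart, added after seeing the data for the comparisons between groups, ask more of genes at low depth such as the NFAT factors.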

Other observations

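Genes of other cell types differed between the libraries as well, and the part of such cells in the levels of the calcineurin and NFAT genes was not tested. The summed scaled FPKM of 4 fibroblast genes, none at 0 and led by Dcn (mean 25.1 FPKM), was 43.9 and 39.1 in the IgG and anti-EZH2 libraries of Sham, 30.8 and 33.6 after 4 h and 31.9 and 28.9 after 24 h of AngII. These genes went different ways. Col1a1 was at 0.208 and 0.814 times Sham at 4 h and 0.322 and 0.221 times at 24 h. Dcn stayed between 0.841 and 1.00 times. Tcf21 was at 1.41 and 1.57 times, then 1.94 and 2.39 times. Pdgfra was at 0.501 and 1.47 times, then 0.860 and 2.25 times. In the same order, the summed scaled FPKM of 4 macrophage genes, led by Csf1r (1.73 FPKM) and with Cd68 at 0 in the AngII 24 h anti-EZH2 library, was 4.71 and 6.58, 4.74 and 2.62, and 3.02 and 2.80. That of 4 globin genes, none at 0 and led by Hbb-bs (264.2 FPKM), was 909.6 and 896.2, 530.2 and 531.2, and 1228 and 1002. That of 5 cardiomyocyte genes, none at 0, was 5113 and 4751, 5786 and 5439, and 4987 and 4788. Of 3 adipocyte genes, Plin1 was at 0 in all libraries, Adipoq was at 0.521 FPKM in Sham anti-EZH2 alone and Cfd at 0.290 FPKM in AngII 24 h anti-EZH2 alone. Of 4 T cell genes, Cd3d was at 0.112 FPKM in AngII 4 h anti-EZH2 and at 0 elsewhere.

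In the series table, whose values differed from those of the tables of the libraries, Rcan1 stood at 2.22 and 0.711 FPKM in the IgG and anti-EZH2 libraries of Sham, 1.92 and 2.47 after 4 h and 2.26 and 2.73 after 24 h of AngII, so that the Sham anti-EZH2 library was the low one there too. The anti-EZH2/IgG ratio there was 0.320 in Sham, 1.28 after 4 h and 1.21 after 24 h.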
